A study of Canis rufus and Canis latrans with 56 samples.

Results

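The splicing factors and heterogeneous nuclear ribonucleoproteins (hnRNPs) described here are the genes whose probe symbol begins with SNRP, SNRNP, SF3A, SF3B, U2AF, PRPF, SRSF or HNRNP. The rule found 72 of the 16121 genes named on the array, on 83 of its 24354 probes, and each gene is represented by its brightest probe over all animals. RNA came from the whole blood, stored in RNAlater, of 1 coyote and 13 red wolves (Canis rufus). According to the design text, 6 wolves lived in captivity and 7 in the wild, as did the coyote, a female. Status and sex are not assigned to single wolves in the labels, so no comparison by either was made, and the ages of the animals are not given there. The descriptions of 3 wolves (11136, 111080 and 11310) and of the coyote mention collection in the wild. The absence of that mention does not mark an animal as captive. Each animal's labelled RNA went onto 4 human bead arrays, 56 in all on 7 slides. These arrays are technical repeats of 1 RNA, and their number limits the precision. Each animal counts once where 1 animal is set against others. The test among wolves measures their differences against the scatter of the repeat arrays. A gene name is that of the human probe, and the canid transcript that bound there was not identified.

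Most protein-coding transcripts of animals carry introns, which the spliceosome removes. Small nuclear ribonucleoproteins (snRNPs) recognise the start of the intron and the branch site, and the U2AF and SF3 factors help to place them there. PRPF proteins take part in assembly and remodelling of the machine. SR proteins bind exons and mostly favour their inclusion, whereas hnRNPs coat nascent transcripts and often oppose inclusion. In blood, nucleated white cells depend on splicing for choices such as the isoforms of the surface phosphatase CD45. Mature red cells and platelets lack a nucleus but carry RNA made before it was lost.

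A level below is a log2 intensity with the array's mean set to 0, so that a step of 1 stands for a 2-fold change of intensity. Human probes bind canid RNA unequally well, and levels are therefore not compared between genes. Background was taken to reach up to 0.396, the mean level of HPX, the brightest of 39 liver and skeletal muscle genes. Of the 72 splicing genes, 28 lay above it, as did 1597 of all named genes. Probes for red cell genes were bright, with HBA1, HBA2, HBB, HBD, AHSP and BNIP3L above the bound among 12 measured. Few white cell markers were: TYROBP and FCER1G of 9 monocyte genes, CD6 and LCK of 15 T cell genes, GZMB and CTSW of 9 NK and cytotoxic genes, NCF1 of 16 neutrophil genes and none of 9 B and plasma cell genes. Of 7 platelet genes, PF4 was above it. In whole blood, fewer cells of a type and less RNA per cell cannot be told apart.

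The first question was whether wolves differed in these genes by more than their repeat arrays did. They did in 26 of 72 genes (36.1%), by limma's moderated F test at an adjusted p of 0.05, where 12.8% of all named genes passed. Nearly all of the 26 were bright. Above the background bound, 25 of 28 splicing genes passed (89.3%) beside 79.1% of all named genes. At or below the bound PRPF31 alone passed of 44, beside 5.52% of named genes there. The spread of the bright splicing genes was wide. Their median SD over the 13 wolves was 0.50, against 0.25 for all named genes above the bound, and the median share of variance lying between wolves was 0.863 against 0.539. Neither of these differences between lists was tested. The groups ranked by count were hnRNPs with 13 of 19 past the test, SR proteins with 6 of 11, the branch site and 3′ splice site factors with 3 of 12, PRPF proteins with 2 of 11 and snRNP proteins with 2 of 19. In the same order, 13 of 13, 6 of 6, 3 of 4, 1 of 1 and 2 of 4 passed among genes above the bound. The ranking thus largely follows how many probes of a group were above background.

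**Figure D1:**
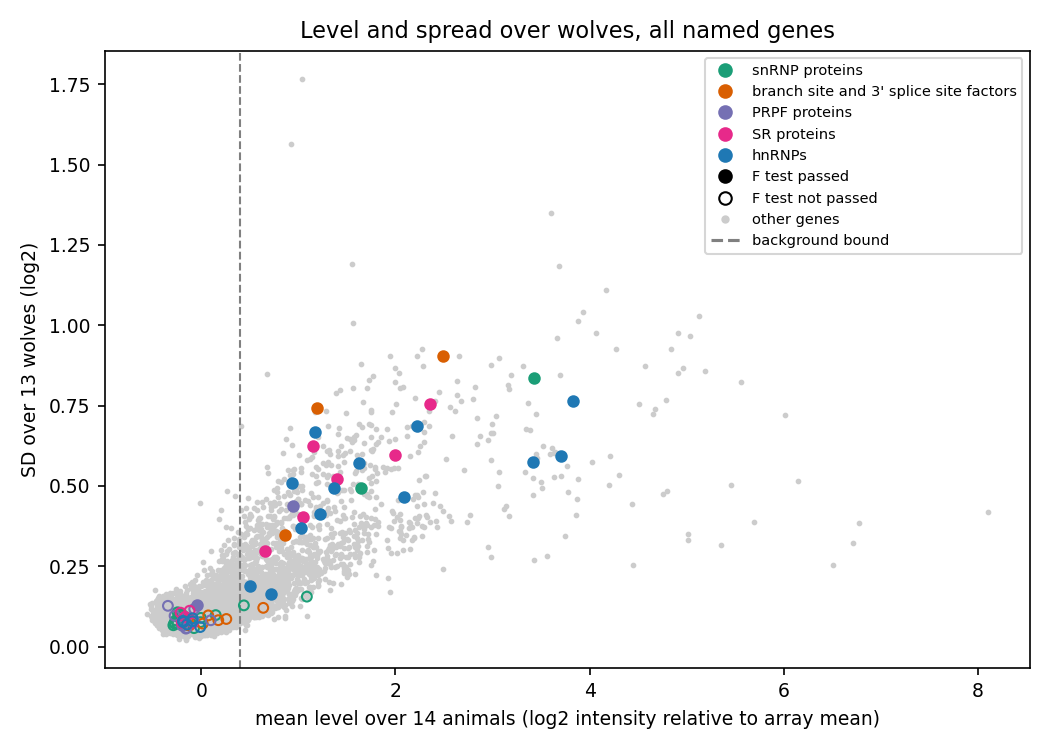
Mean level over the animals (x axis, log2 intensity relative to the array mean) against the SD over the 13 wolves (y axis, log2) for each of the 72 genes, coloured by role, filled where the F test among wolves was passed and open otherwise. To the left of the background bound at 0.396 the SDs of genes that did not pass stayed at 0.127 or less. To the right of the bound they stayed at 0.156 or less, and those of genes that passed reached 0.90 in U2AF1. Small grey points are the other named genes.

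Among the snRNP proteins, SNRNP200 varied most. It encodes the helicase of the U5 snRNP that unwinds the paired U4 and U6 RNAs before catalysis. Its level was lowest in wolf 11136 at 1.21, had a median of 3.79 and was highest in wolf 11275 at 4.27, an 8.31-fold span (SD 0.84, n = 13; limma adjusted p = 6.13e-22). The coyote stood at 3.16. Wolf 11310, next from the bottom, was at 2.42, and the other 11 wolves lay between 3.10 and 4.27, so most of this span came from a pair of animals. Against the other 12 wolves, wolf 11136 was lower by a difference of -2.41 (SE 0.61), which did not pass the test for a single wolf (limma adjusted p = 0.305).

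SNRPB, a protein of the Sm ring that surrounds the snRNA, was the other snRNP gene past the test. It ran from 0.96 in wolf 10406 to 2.43 in wolf 11310 (SD 0.50, n = 13; limma adjusted p = 5.23e-17). SNRPC, a U1 protein that steadies contact with the start of the intron, was above background in all 13 wolves at a mean level of 1.08 (SD 0.16) and missed the threshold with an adjusted p of 0.0540. SNRPB2, a protein of the U2 snRNP, had a mean of 0.46 (SD 0.13), was above the bound in 9 wolves and had an adjusted p of 0.220. The remaining Sm ring genes, SNRPD1, SNRPD2, SNRPD3, SNRPE, SNRPF and SNRPG, had wolf means between -0.29 (SNRPE) and 0.16 (SNRPD3), so their probes gave no level above background. The same held for SNRNP70 and SNRPA, which encode U1 proteins.

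U2AF1, the small U2AF subunit that reads the AG at the end of the intron, had the largest spread of all 72 genes. Wolf 11273 was lowest at 1.14, followed by 10406 at 1.32, 11274 at 1.53, 11275 at 1.75, 11148 at 1.78 and 10632 at 2.08. Wolf 10537 held the median of 2.69, and above it stood 11136 at 2.77, 11206 at 2.93, 11105 at 3.14, 11310 at 3.45, 111080 at 3.62 and 11270 at 3.73. The wolves thus ran in small steps across a 6.03-fold span, with a wider step between 10632 and 10537. The SD was 0.90 (n = 13; limma adjusted p = 1.17e-28), the standard error of an animal's value was 0.09, and the coyote lay inside the series, 0.54 above the wolf mean. The probe of its partner U2AF2, which binds the pyrimidine tract, stayed below the bound with a wolf mean of -0.11 (SD 0.07). U2AF1L4, a relative of U2AF1, was above background at 0.64 in the mean but varied little (SD 0.12; limma adjusted p = 0.202).

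SF3B1, the largest SF3B subunit and a clamp around the branch site, ran from 0.17 in wolf 11273 through a median of 0.78 to 2.65 in wolf 11206, with the coyote at 1.55. The span was 5.57-fold (SD 0.74, n = 13; limma adjusted p = 7.67e-27). Wolves 11206 and 11270 (2.21) stood above the rest, the next being 11310 at 1.72. SF3B6, the small subunit next to the branch point adenosine, ran from 0.23 in wolf 11273 to 1.27 in wolf 11206 (SD 0.35; limma adjusted p = 1.95e-13). None of SF3A1, SF3A2, SF3A3, SF3B2, SF3B3, SF3B4 and SF3B5 was above background, SF3B5 being the brightest of them at 0.26.

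Of the PRPF genes, PRPF3 alone was above background. Its product belongs to the U4/U6 snRNP. Levels ran from 0.45 in wolf 11273 to 1.94 in wolf 11206, with 11270 next at 1.63 (SD 0.44, n = 13; limma adjusted p = 7.01e-17). PRPF31, which binds the same particle, passed the test below the bound, at levels from -0.27 in wolf 11275 to 0.13 in wolf 11310 (SD 0.13; limma adjusted p = 0.0342). That call was lost in 10 of the 24 alternative settings that tested it, among them the fit with no slide term (adjusted p = 0.0879) and the omission of wolf 11310 (0.138). PRPF8, the scaffold at the heart of the spliceosome, had a wolf mean of -0.08, and PRPF6 of -0.08, both below the bound.

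In the SR family, SRSF2 had the widest spread. This protein, also called SC35, marks nuclear speckles and binds exonic enhancers. Its lowest level was 1.23 in wolf 11273, the median was 1.98, and the highest was 3.71 in wolf 11270, a 5.56-fold span, with the coyote at 2.48. The SD was 0.76 (n = 13; limma adjusted p = 5.15e-24). A step of 0.54 separated the 7 lowest wolves, which ended at 1.98, from the 6 highest, which began at 2.51.

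SRSF5 ran from 0.22 in wolf 11273 through a median of 0.90 to 2.06 in wolf 11270, with the coyote at 1.31 (SD 0.62; limma adjusted p = 9.88e-20). SRSF9 ran from 1.10 in wolf 10406 through a median of 2.24 to 2.83 in wolf 111080, with the coyote at 2.45 (SD 0.60; limma adjusted p = 1.59e-19). Both encode splicing activators with RNA recognition motifs and a serine-arginine tail. In SRSF9 wolf 11273 was at 1.11, level with the lowest animal, so the order of that pair is not resolved.

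SRSF1, the founding member of the family, ran from 0.57 in wolf 11273 to 2.18 in wolf 11206 (SD 0.52; limma adjusted p = 2.09e-16). SRSF4 ran from 0.52 in wolf 11136 to 1.65 in wolf 111080 (SD 0.40; limma adjusted p = 7.75e-16). SRSF10, a member that can repress splicing when dephosphorylated, ran from 0.28 in wolf 10406 to 1.15 in wolf 11206 (SD 0.30; limma adjusted p = 3.39e-11). All 6 bright SR genes therefore differed among wolves. The other 5, SRSF3, SRSF6, SRSF8, SRSF11 and SRSF12, gave wolf means between -0.22 and -0.09, below the bound.

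The hnRNPs had the most probes above background of the groups, for 13 of 19 genes, and all 13 passed the test. HNRNPU, which binds RNA and chromatin and helps hold nuclear architecture, had its lowest level of 2.57 in wolf 11273, then 3.04 in 11148, 3.05 in 10406, 3.19 in 11274, 3.31 in 11275, 3.32 in 10632 and 3.45 in 11136. The next wolf up was 10537 at 4.21, followed by 11270 at 4.42, 11105 at 4.49, 111080 at 4.58, 11310 at 4.67 and 11206 at 4.80. The step of 0.76 between the 7 lowest and 6 highest wolves was several times the standard error of 0.12 of an animal's value. The coyote, at 4.56, lay with the higher values. The SD was 0.76 (n = 13), the span 4.68-fold and the limma adjusted p 2.40e-21.

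HNRNPA1 showed the same step. This abundant protein binds exonic and intronic silencers and shuttles to the cytoplasm. It stood at 2.82 in wolf 11273, 3.07 in 11148, 3.09 in 11136, 3.17 in 10406, 3.31 in 10632 and 3.34 in both 11274 and 11275. It then rose to 4.02 in 11105, 4.14 in 10537, 4.26 in 11270, 4.33 in 111080, 4.34 in 11206 and 4.47 in 11310, with the coyote at 4.17. The SD was 0.59 (n = 13; limma adjusted p = 1.93e-17), and the gap between the sets was 0.68.

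HNRNPM, which binds GU-rich RNA, ran from 1.07 in wolf 11148 through a median of 1.84 to 3.11 in wolf 111080, with the coyote at 3.04 (SD 0.69; limma adjusted p = 3.33e-22). Its 7 lowest wolves were those of HNRNPU and HNRNPA1 and ended at 1.84, and the others began at 2.31. HNRNPC, which binds uridine tracts, ran from 2.56 in wolf 11273 through a median of 3.39 to 4.26 in wolf 111080, with the coyote at 4.09 (SD 0.57; limma adjusted p = 1.89e-18). Here wolf 11136 was not among the low animals, at 3.73.

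**Figure D2:**
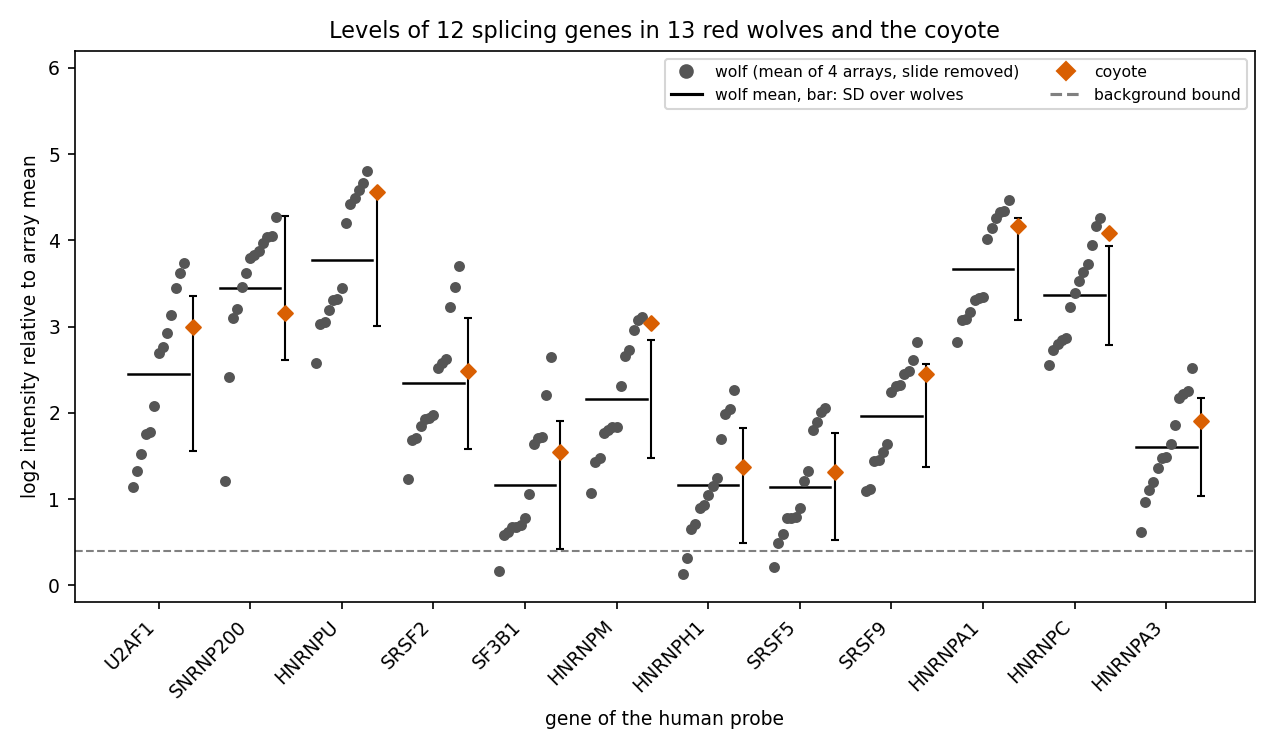
Levels (y axis, log2 intensity relative to the array mean) of the 12 splicing genes with the largest SD among those past the F test (x axis), with a point for each of the 13 wolves, a line at the wolves' mean, a bar of 1 SD to either side and a diamond for the coyote; the dashed line is the background bound. In SNRNP200 wolf 11136 lies alone at 1.21, whereas in HNRNPU and HNRNPA1 an empty stretch divides the wolves.

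HNRNPH1, which binds runs of guanines, ran from 0.13 in wolf 11136 through a median of 1.04 to 2.26 in wolf 11206, with the coyote at 1.38 (SD 0.67; limma adjusted p = 7.33e-20). HNRNPA3, a close relative of HNRNPA1, ran from 0.61 in wolf 11136 through a median of 1.49 to 2.52 in wolf 11270, with the coyote at 1.91 (SD 0.57; limma adjusted p = 8.29e-21). In both, wolf 11136 was lowest and 11206, 11270 and 11310 were among the high animals.

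The other 7 hnRNPs past the test spread less. HNRNPD, also called AUF1, binds AU-rich elements of unstable messages and ran from 0.11 in wolf 11273 to 1.93 in wolf 11310 (SD 0.51). HNRNPA2B1 ran from 0.83 in wolf 10406 to 2.14 in wolf 11270 (SD 0.49). HNRNPAB ran from 1.51 in wolf 11148 to 2.99 in wolf 111080 (SD 0.46). HNRNPL is a regulator of CD45 exons and binds CA repeats. It ran from 0.69 in wolf 10632 to 1.89 in wolf 111080 (SD 0.41), and HNRNPR from 0.50 in wolf 11273 to 1.52 in wolf 111080 (SD 0.37). HNRNPA0 (SD 0.19; limma adjusted p = 1.82e-06) and HNRNPCL1 (SD 0.16; limma adjusted p = 0.000881) were the least variable. HNRNPCL1 is a near copy of HNRNPC in the human genome, and the call for it was lost when the arrays numbered 1, 2 or 3 of every animal were left out (adjusted p 0.0526, 0.0861 and 0.198). Below the bound lay HNRNPK, HNRNPF, HNRNPH2, HNRNPH3, HNRNPDL and HNRNPLL, with wolf means between -0.19 and 0.00.

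Of the genes past the test, 6 carry more than 1 probe. Only HNRNPAB gave 2 probes above background, and both passed. Its dimmer probe ran from 0.72 in wolf 11136 to 1.74 in wolf 111080 (SD 0.30; limma adjusted p = 7.59e-10), so the highest wolf was the same and the lowest was not. The other probes of HNRNPA1, HNRNPM, HNRNPU, SNRPB and SRSF10 were all below the bound and did not pass, the smallest adjusted p being 0.0867 for SNRPB. For these 5 genes the differences among wolves therefore rest on 1 probe each.

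Each animal's arrays lay on 4 slides. For 26 of 26 genes the highest wolf exceeded the mean of the other wolves on its slide on all 4, beside 88.4% of the 1264 named genes above background that passed the test. For 25 of 26 the lowest wolf was below that mean on all 4, beside 96.4% of the 1264, the exception being PRPF31. The extreme wolves were chosen on these same arrays, so the counts describe the slides and add no independent support. In HNRNPA1, for example, wolf 11273 was below the mean of the other wolves of its slides by differences of -1.19 to -0.63. The highest wolf of that gene, 11310, exceeded the mean by 0.0093 to 1.18 over its 4 slides. Its margin was also uneven in the other genes where it was highest. It ran from 0.36 to 1.55 in HNRNPD, from 0.22 to 1.17 in SNRPB and from 0.011 to 0.42 in PRPF31. Slide itself differed in 25 of the 72 genes (34.7%) with animal kept in the fit, beside 21.9% of all named genes.

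The order of the wolves recurred from gene to gene. Wolf 11273 was lowest in 12 of the 26 genes (46.2%), 11136 in 6 (23.1%) and 10406 in 4 (15.4%). Over the 1264 named genes above the bound that passed the test, wolf 11273 was lowest in 21.7%, 11136 in 38.5% and 10406 in 4.19%. Wolf 11310 was lowest in 18.7% of the 1264 but in 0 of the 26. At the other end, 111080 was highest in 9 (34.6%, against 15.8% of the 1264) and 11206 in 7 (26.9% against 23.6%). Wolf 11270 was highest in 5 (19.2% against 7.04%) and 11310 in 4 (15.4% against 5.38%).

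The 7 wolves lowest in HNRNPU were also exactly the 7 lowest in 15 of the other 25 genes (60%), and at least 6 of them were among the 7 lowest in 22 (88%). The comparison with HNRNPU was chosen after its values were seen. For the other 1263 named genes above the bound that passed, the shares were 26.0% and 44.8%. SNRNP200 did not follow that order, with 3 of those 7 wolves among its 7 lowest. Wolves 11275, 10406 and 11273 were near its top at 4.27, 4.05 and 3.97, as was 11105 at 4.05. Its lowest wolf, 11136, was also among those 7. HNRNPCL1 shared 4 of the 7.

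**Figure D3:**
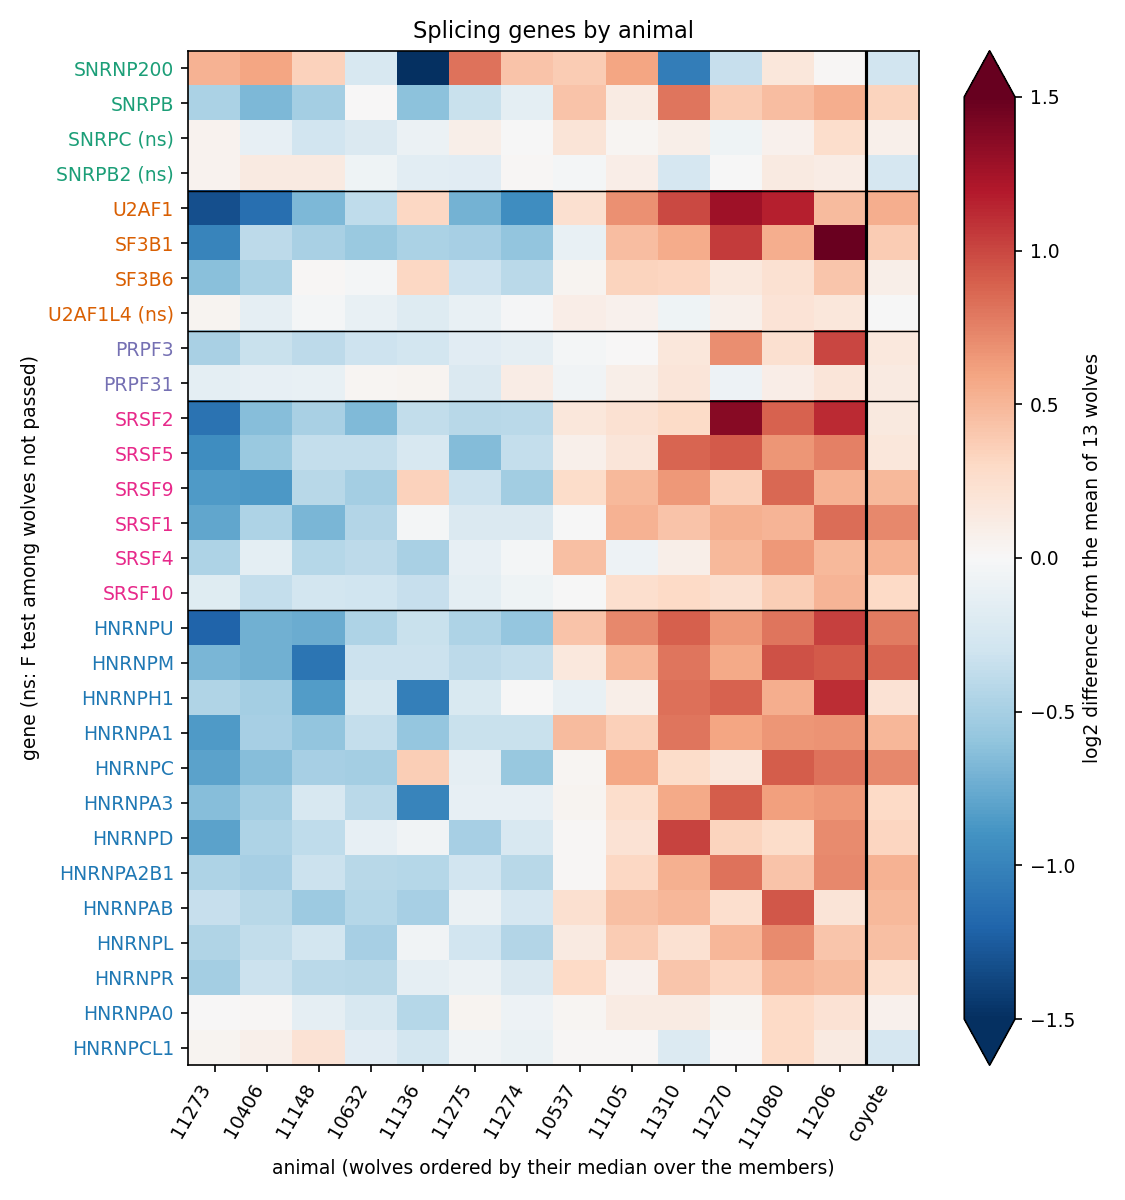
Difference of each wolf from the mean of the 13 wolves (colour, log2) for the 28 genes above background and PRPF31 (rows, by role) in each wolf and the coyote (columns); the mark ns stands for genes that did not pass the F test. Most rows change from low in wolves such as 11273 and 10406 to high in 111080 and 11206. SNRNP200, HNRNPCL1 and SNRPB2 are among the exceptions, each above the wolves' mean in 11273 and 10406.

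Counted per animal, the genes above the wolves' median numbered 25 of 26 in each of 11105, 111080 and 11206, 24 in 11310, 23 in 11270 and 18 in 10537. They numbered 5 in 11136, 4 in 11274, 2 in each of 11273, 10406 and 11275, 1 in 11148 and 0 in 10632. The 1264 genes were more evenly divided in several of these animals. In wolf 11273 48.3% of them were above the median and in 11275 47.0%, against 7.69% of the splicing genes in both. In wolf 11310 the shares were 45.3% and 92.3%, and in 11270 54.7% and 88.5%. Wolf 10632 was low in both sets, with 6.88% of the 1264 above the median, and wolf 11105 high in both (96.2% and 81.7%). Wolf 11136 was also low in both, with 19.2% of the splicing genes and 9.65% of the 1264 above the median. The shares of the splicing genes and of the 1264 were 3.85% and 21.9% in wolf 11148, and 69.2% and 79.0% in 10537. In wolf 111080 they were 96.2% and 61.9%, and in 11206 96.2% and 67.7%. In 10406 they were 7.69% and 37.1%, and in 11274 15.4% and 38.8%.

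The median difference from the wolf mean over the 26 genes was lowest in wolf 11273 (-0.57) and 10406 (-0.47) and highest in 11206 (0.60), 111080 (0.54), 11270 (0.49) and 11310 (0.47). Of the wolves with a mention of wild collection, 111080 and 11310 were in the upper part and 11136, at -0.33, in the lower. Over the 1264 genes the median difference was 0.15 in 111080, -0.07 in 11310 and -0.30 in 11136. The sign over the 26 genes turned in 3 animals with other scaling. Under quantile normalization it turned for 11136 to 0.08 and for 10537 from 0.06 to -0.03. For 11105 it turned from 0.28 to -0.03 when array spreads were made equal. It did not turn in the other 10 wolves in any of the 25 alternatives.

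**Figure D4:**
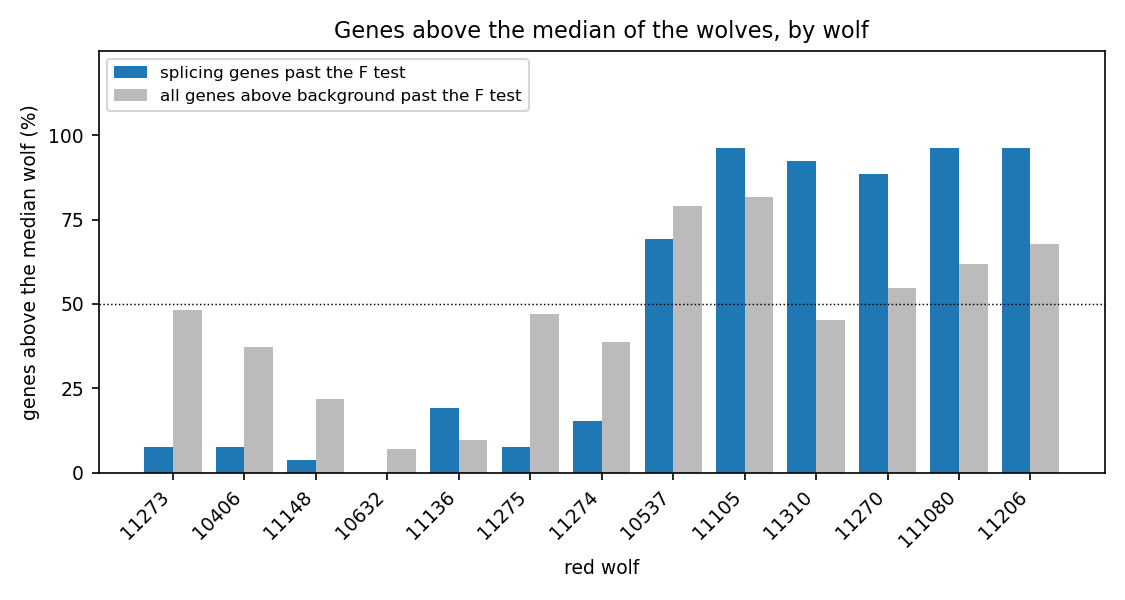
Share of genes above the wolves' median (bars, y axis in percent) in each of the 13 wolves, for the 26 splicing genes past the F test and for the 1264 named genes above background that passed it. The shares of splicing genes run from 0% in wolf 10632 to 96.2% in 111080, 11206 and 11105, and those of the wider set are between 45.3% and 54.7% in 11273, 11275, 11310 and 11270.

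Other measures followed this order in part. The spread of the values over bright probes was not equal between animals. In the 7 wolves lowest in HNRNPU it was narrowest in 11136 (SD 0.856), then 10632 (0.897), 11148 (0.910) and 11274 (0.924). The rest of those wolves had 0.934 (10406), 0.968 (11273) and 1.01 (11275). The other 6 wolves had 0.989 (10537), 1.02 (11270), 1.04 (11206 and 11310), 1.05 (11105) and 1.06 (111080). The 7 and the 6 thus overlapped only in 11275 and 10537. The mean over 12 red cell genes was 1.13 in wolf 11273 and 1.09 in 10406, but 0.84 in 11206, 0.83 in 111080 and 0.67 in 11310. It was 1.19 in wolf 11105, which was high in splicing genes, and 0.79 in 11136, which was low. The mean over 9 monocyte genes, 2 of them above the bound, ran from -0.11 in wolf 11273 to 0.09 in 11206. It was -0.013 in 111080, high in splicing genes, and -0.0072 in 10406, which was low. The means over 7 platelet genes and over 9 NK and cytotoxic genes were highest in 11273 (0.31 and 0.15). They were lowest in 11136 (0.11 and 0.01), another wolf low in splicing genes. The parts of array spread and of cell makeup in the splicing result were not tested.

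Each wolf was also set against the rest in each of the 72 genes by limma on 1 value per animal. With 1 animal on one side, a gene that does not pass is not shown to be level. In SNRNP200, for example, wolf 11136 had a difference of -2.41 (SE 0.61). In 13 comparisons of a wolf with the other 12, 0 genes passed, where at most 0.0739% of all probes did in a given direction (wolf 11310, higher). That share was 0.0123% for wolf 111080 higher and at most 0.00411% in all other cases. At an unadjusted p of 0.05, 6 of the 72 genes (8.33%) were higher in wolf 11206 and 6 in 11270, beside 3.26% and 1.86% of all probes. In wolf 11273 5 genes (6.94%) were lower, beside 2.41% of all probes. In wolf 11136 5 were lower and 5 higher, where 4.14% and 7.06% of all probes were. Under quantile normalization, 4 of the 72 passed in wolf 11136 and none in another. These were HNRNPA0 at -0.60, SF3B5 at 0.43, SNRNP70 at 0.30 and HNRNPDL at 0.29, with adjusted p between 0.0234 and 0.0411, beside 1.86% of all probes. The last 3 are below background, and wolf 11136 had the narrowest spread before scaling.

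Other genes of splicing and RNA binding were drawn from a list of 116, of which 111 were measured. Of these, 28 passed the F test (25.2%, beside 12.8% of all named genes). Above background 19 of 21 passed (90.5%), beside 79.1% of all named genes there. Other RNA-binding regulators gave 12 of 32, SR-like proteins and their kinases 6 of 18, the spliceosome core 9 of 40, Sm-like proteins and snRNP assembly 1 of 18 and the exon junction complex 0 of 3 (smallest adjusted p 0.391).

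MBNL1, the muscleblind splicing regulator, varied most, from 1.28 in wolf 11273 to 3.46 in wolf 11270, with the coyote at 3.20 (SD 0.76; limma adjusted p = 5.49e-23). EWSR1, of the FET family of RNA-binding proteins, ran from 0.73 in wolf 11273 to 2.59 in wolf 11206 (SD 0.61). TARDBP, which encodes TDP-43, ran from 0.34 in wolf 11148 to 2.02 in wolf 11206 (SD 0.56). The low and high ends were thus held by animals that held them in the SNRP to HNRNP families.

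Next by SD came the poly(C)-binding PCBP2 (0.51), the TIA1 relative TIAL1 (0.50), the helicase DDX41 (0.49), the cold-inducible CIRBP (0.47), BUD31 (0.46), the FET protein TAF15 (0.44) and the helicase DHX16 (0.43). They were followed by ARGLU1 (0.38), CELF1 (0.37), the Sm-like LSM6 (0.30), the helicase DHX15 (0.30) and the SR protein kinase CLK1 (0.26). CIRBP and CLK1 had mean levels below the bound. Of the 28, wolf 11273 was lowest in 13, 11148 in 6 and 11136 in 5. Wolf 11206 was highest in 14 and 111080 in 5, and 27 of the 28 were above the wolves' median in 11206 against 3 in 11273. Over the 1264 named genes above background that passed, wolf 11273 was lowest in 21.7%, 11148 in 7.04% and 11136 in 38.5%. Wolf 11206 was highest in 23.6% of the 1264 and 111080 in 15.8%. Above the median were 67.7% of them in 11206 and 48.3% in 11273. Unlike the 1264, the 28 include 9 genes at or below the bound.

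The last question was how the coyote differed from the wolves. With 1 coyote, its own spread was taken to equal that of the wolves. By limma, 0 of the 72 genes differed at an adjusted p of 0.05, where 0.00411% of all probes did. At an unadjusted p of 0.05, 2 did (2.78%), beside 3.74% of all probes: SNRPE, higher by 0.20, and PRPF38A, lower with a difference of -0.15, both below background.

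HNRNPM had the largest difference upward, at 3.04 in the coyote against a wolf mean of 2.16 (difference 0.88, SE 0.62, 95% interval -0.38 to 2.14). HNRNPU followed with 0.78 (SE 0.78) and HNRNPC with 0.73 (SE 0.69). In each of these the coyote exceeded the mean of the wolves on 4 of 4 slides, but lay inside their range. Downward, SNRNP200 differed by -0.29 (SE 0.80), HNRNPCL1 by -0.25 (SE 0.19) and SNRPB2 by -0.25 (SE 0.14). The intervals are wide enough to allow a change of more than 2-fold upward in HNRNPM and none at all.

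Over the 28 bright genes the coyote was higher than the wolf mean in 24, beside 757 of the 2064 probes above the bound. The median difference was 0.31, beside -0.09 over those probes. The coyote was above the wolves' median in 24 of the 26 genes past the F test (92.3%), against 46.0% of the 1264. In none of the 28 was it outside the range of the wolves, where 6.78% of bright probes were. Among all 72 it was outside in 10 (13.9%, beside 12.2% of all probes), 3 above and 7 below. The coyote's mean over 9 monocyte genes, 0.22, was above that of any wolf, and its spread over bright probes (1.07) was the widest of all animals. Their part in the difference was not tested.

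**Figure D5:**
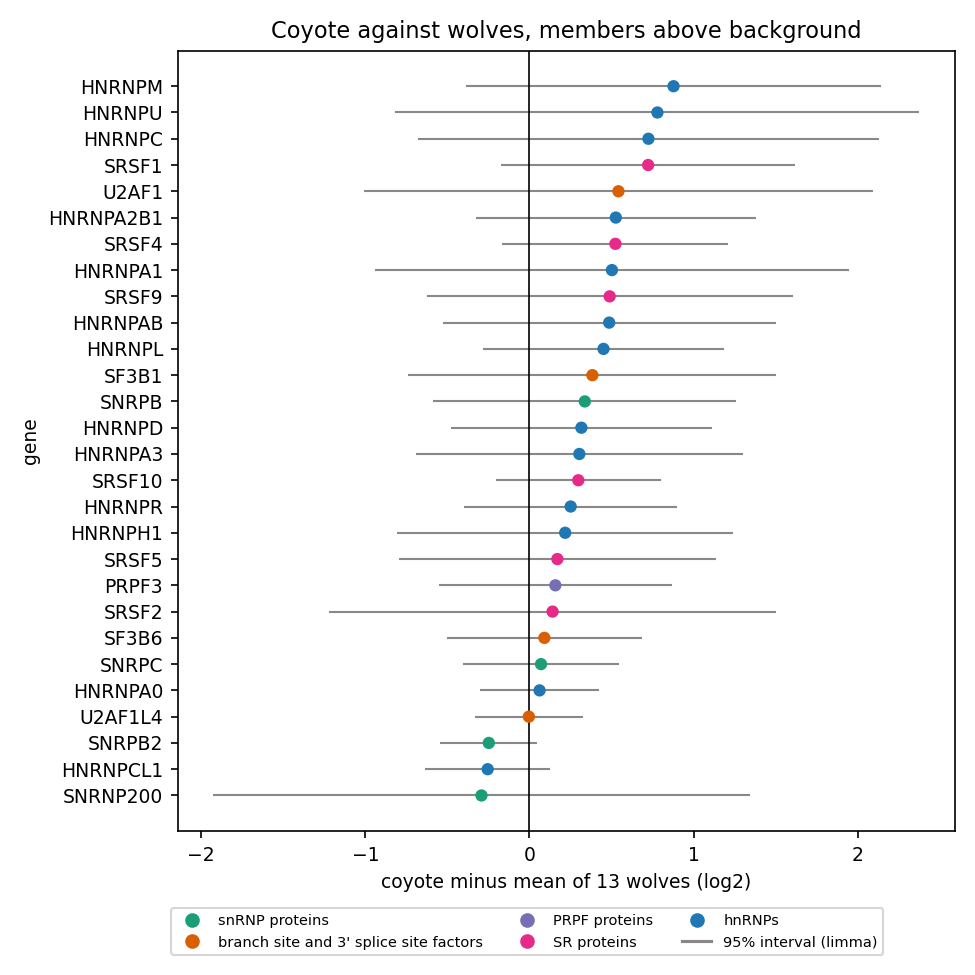
Coyote minus the mean of the 13 wolves (x axis, log2) for the 28 splicing genes above background (y axis), coloured by role, with the 95% interval of the difference from limma as a line. Most points lie right of 0, up to 0.88 in HNRNPM, and the interval of each gene includes 0.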

How the data were processed

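The deposited values are log2 intensities of 24354 probes on human Illumina arrays, which the submitters' processing notes say were read in BeadStudio (1.5.0.34). Per the labels' design text, the authors centred each array on its median. In the table the array means are 0 (largest absolute mean 3.24e-09) and the medians lie between -0.167 and -0.0325. Array spreads were not equalised, and no source used here says whether background was subtracted. The probe annotation names 1 gene for 18339 probes, several for 0 and none for 6015. No 2 arrays were identical (smallest SD of a difference within an animal 0.206).

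All fits were made in R 4.3.3 by limma (3.58.1), eBayes including a trend on intensity, with Benjamini-Hochberg adjustment over all probes at 0.05. Wolves were compared by the F test of animal terms on 52 arrays with slide as a covariate. It asks whether animals differ by more than technical arrays do. For the coyote and for each wolf, each animal's 4 arrays were reduced to 1 slide-adjusted value, which was set against the other wolves.

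All genes past the F test or above the bound were named, the 12 with the largest SD among those past the test with more values, 3 coyote differences in each direction, and 15 genes of the wider list by SD. Other genes were picked with their values in view. The gene families and lists were chosen with earlier results of these data known. Procedures were tested on simulated data, and 25 alternative settings were run.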

Additional observations from a re-analysis of the deposited data

Results flagged for a closer look

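In the 12 genes with the largest SD, the 4 arrays of each animal were searched for 1 array far from the rest by Dixon's test. The values were not adjusted for slide here, and the 4 arrays of an animal lay on 4 slides. A single deviating array and a shift of its slide therefore cannot be told apart. The search singled out 10 of 168 sets of 4 arrays. Chance gives about 1 in 20, or 8.4, where slides do not differ. HNRNPU had a low array of wolf 11310, at 3.55 beside 4.98 to 5.21, and of wolf 11148, at 2.75 beside 3.26 to 3.34. HNRNPH1 had a low array in 3 wolves: 1.75 in 11206 (others 2.25 to 2.33), 0.12 in 11148 (0.56 to 0.64) and -0.093 in 11136 (0.18 to 0.22). HNRNPM had a high array of wolf 10632, at 2.32 beside 1.54 to 1.59, and of wolf 11274, at 2.07 beside 1.55 to 1.61. SRSF5 had a low array of wolf 11148, at 0.63 beside 0.92 to 0.94, and a high array of wolf 11274, at 0.90 beside 0.65 to 0.67. In the coyote, 1 array of SF3B1 read 1.19 beside 1.77 to 1.84. The low HNRNPU array of wolf 11310 differed from its repeats by more than the gap of 0.76 that separates the wolves in that gene. That gap is between slide-adjusted values, whereas the arrays compared here were not adjusted.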

How the results depend on the processing

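The number of splicing genes differing among wolves was 26 as reported and 24 to 28 over 25 other settings, and 24 of the 26 were called under every one; PRPF31 and HNRNPCL1 were not. The settings covered the slide term, centring, quantile normalization, equal array spread, dim probes, probe choice, the intensity trend and the omission of each array number or wolf. SNRPC was gained under 5 settings of centring, scaling, filter or trend (adjusted p 0.0136 to 0.0407) and 5 omissions of an array number or wolf, and SNRPB2 under equal spread (0.0331) and without wolf 11105 (0.0422). The coyote count was 0 in every setting run. For single wolves the count rose from 0 to 4 under quantile normalization and to 4 under equal spread, all in wolf 11136, the animal with the narrowest spread; it was 0 with no slide term and without dim probes. Under equal spread the genes in wolf 11136 were HNRNPA0 at -0.53, SNRNP70 at 0.35, HNRNPDL at 0.32 and PRPF19 at -0.27. Of all probes, 2.13% passed for that wolf under this setting. All of these genes but HNRNPA0 are below background. For genes at or below the bound, the lack of a call does not show equal levels. Of all named genes there, 5.52% passed the F test.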
